A study of Mus musculus with 18 samples.

Results

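The 38 genes described here encode the components, receptors and regulators of complement in mouse liver. They were chosen by name, with earlier results of these data known, and each of the 38 symbols matched 1 of the 54752 genes of the deposited table. Complement is a cascade of plasma proteins that tags particles for uptake, draws in leukocytes and punctures membranes. Recognition molecules carry serine proteases that cleave C4 and C2, an alternative pathway multiplies the cleavage of C3, and the terminal proteins C5 to C9 assemble into the membrane attack complex, while soluble and membrane-bound inhibitors hold each step back. The liver is the main source of these proteins: hepatocytes make most plasma components, whereas C1q, properdin and the receptors for the C3 and C5 fragments are products of macrophages and other myeloid cells. From that background 23 genes were taken as hepatocyte-made, 9 as macrophage-made and 6 as products of other or mixed cells.

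The livers came from male C57BL/6 mice that were 6 weeks old at the start, with 15 mice in each of 3 groups, and 6 livers per group were sequenced from week 22. Mice of the CCl4_PTH group had carbon tetrachloride (CCl4) injected into the peritoneum 2 times per week and Pien Tze Huang (PTH), a traditional Chinese medicine, by gavage every day. Mice of the CCl4 group had the same injections and water by gavage, and control mice had olive oil injections and water by gavage. CCl4 is a solvent that cytochrome P450 enzymes of pericentral hepatocytes turn into a toxic radical, so that repeated doses injure and scar the liver. Doses, the choice of the 6 mice, the time since the last injection and whether a piece held tumour are not stated in the labels. Nothing beyond one library per mouse separates the replicates, and p-values measure the spread between these livers.

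RNA left after removal of ribosomal RNA was read as 150-base pairs and counted per gene, with 67.2 M to 119 M counts per library, of which 35.6 M to 79.7 M lay outside 357 ribosomal RNA loci. Those loci still held 30.6% to 47.2% of the counts in CCl4_PTH, 37.3% to 49.4% in CCl4 and 32.5% to 55.8% in control libraries. Levels are CPM (counts scaled to a common library total), scaled with the TMM factors of edgeR. A gene was called higher or lower when the adjusted p of edgeR's quasi-likelihood test (Benjamini-Hochberg over 21840 genes) was under 0.05, and fold changes are on the log2 scale with their standard error (SE). Each library held hepatocyte RNA, with albumin (Alb) at 11735 CPM or more. Livers carry the replicate numbers of the labels. The liver CCl4_PTH 1 stood apart: its summed level of 16 acute phase genes was 51144 CPM, against 6537 to 8543 CPM in the other 5 CCl4_PTH livers, 7076 to 12541 CPM in CCl4 and 5842 to 7287 CPM in control livers. The liver CCl4 4 had the lowest sum of 11 hepatocyte markers (25723 CPM) and the highest sum of 12 macrophage markers (1547 CPM) of all libraries.

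In CCl4 livers most hepatocyte-made complement genes were lower than in control livers relative to the typical gene, and most macrophage-made genes were higher. With library sizes alone as the scale, 4 of the 23 hepatocyte-made genes were lower and 5 higher, where 1061 of all 21840 genes were lower and 11278 higher. With TMM factors 8 of the 37 genes that passed the expression filter were called higher and 19 lower in CCl4 than in control livers. Of all genes tested 26.3% were called higher and 21.2% lower. Among the 23 hepatocyte-made genes 15 were lower, and their median log2 fold change was −0.48, against 0.05 for all genes tested. Of 11 general hepatocyte markers 7 were lower, with a median of −0.62; their part in the change of the hepatocyte-made genes was not tested. The count of hepatocyte-made genes higher was 0 by edgeR, also at an unadjusted p under 0.05, and 0 by DESeq2. Of the 8 macrophage-made genes tested, 6 were higher and 1 was lower, with a median of 1.91. In this bulk tissue, fewer cells of a type and less RNA per cell cannot be told apart.

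With TMM factors, livers given PTH with CCl4 had more of 10 hepatocyte-made and less of 4 macrophage-made transcripts than livers given CCl4 alone. With library sizes alone as the scale, these counts were 4 and 2, and 8 of the 16 calls of this comparison were lost. On that scale 476 of all 21840 genes were called higher and 622 lower. With the replicate numbers as a block in the fit, all 16 calls were lost. With TMM factors and no block, 12 complement genes were called higher and 4 lower in CCl4_PTH against CCl4 livers, where 7.1% of all genes tested were called higher and 4.95% lower. The 23 hepatocyte-made genes had a median log2 fold change of 0.44 with 10 higher, and the 8 macrophage-made genes a median of −0.72 with 4 lower, against a median of −0.03 for all genes tested. Against control, CCl4_PTH livers had 10 complement genes higher and 3 lower, where 17.4% of all genes tested were higher and 10.3% lower. Here the median was 0.01 for hepatocyte-made genes (1 higher, 2 lower) and 1.16 for macrophage-made genes (6 higher). The hepatocyte-made values depended on the scale: with library sizes alone their median was 0.47, with 13 higher and 0 lower, and without ribosomal RNA loci in the library sizes 0.26, with 9 higher and 0 lower, beside medians of 0.51 and 0.31 for all genes. On the first of these scales 9564 of all 21840 genes were higher and 353 lower. On the second 6893 of 21771 were higher and 675 lower. These 3 comparisons share their libraries, so that a fall against control and a rise against CCl4 are not independent of each other.

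**Figure D1:**
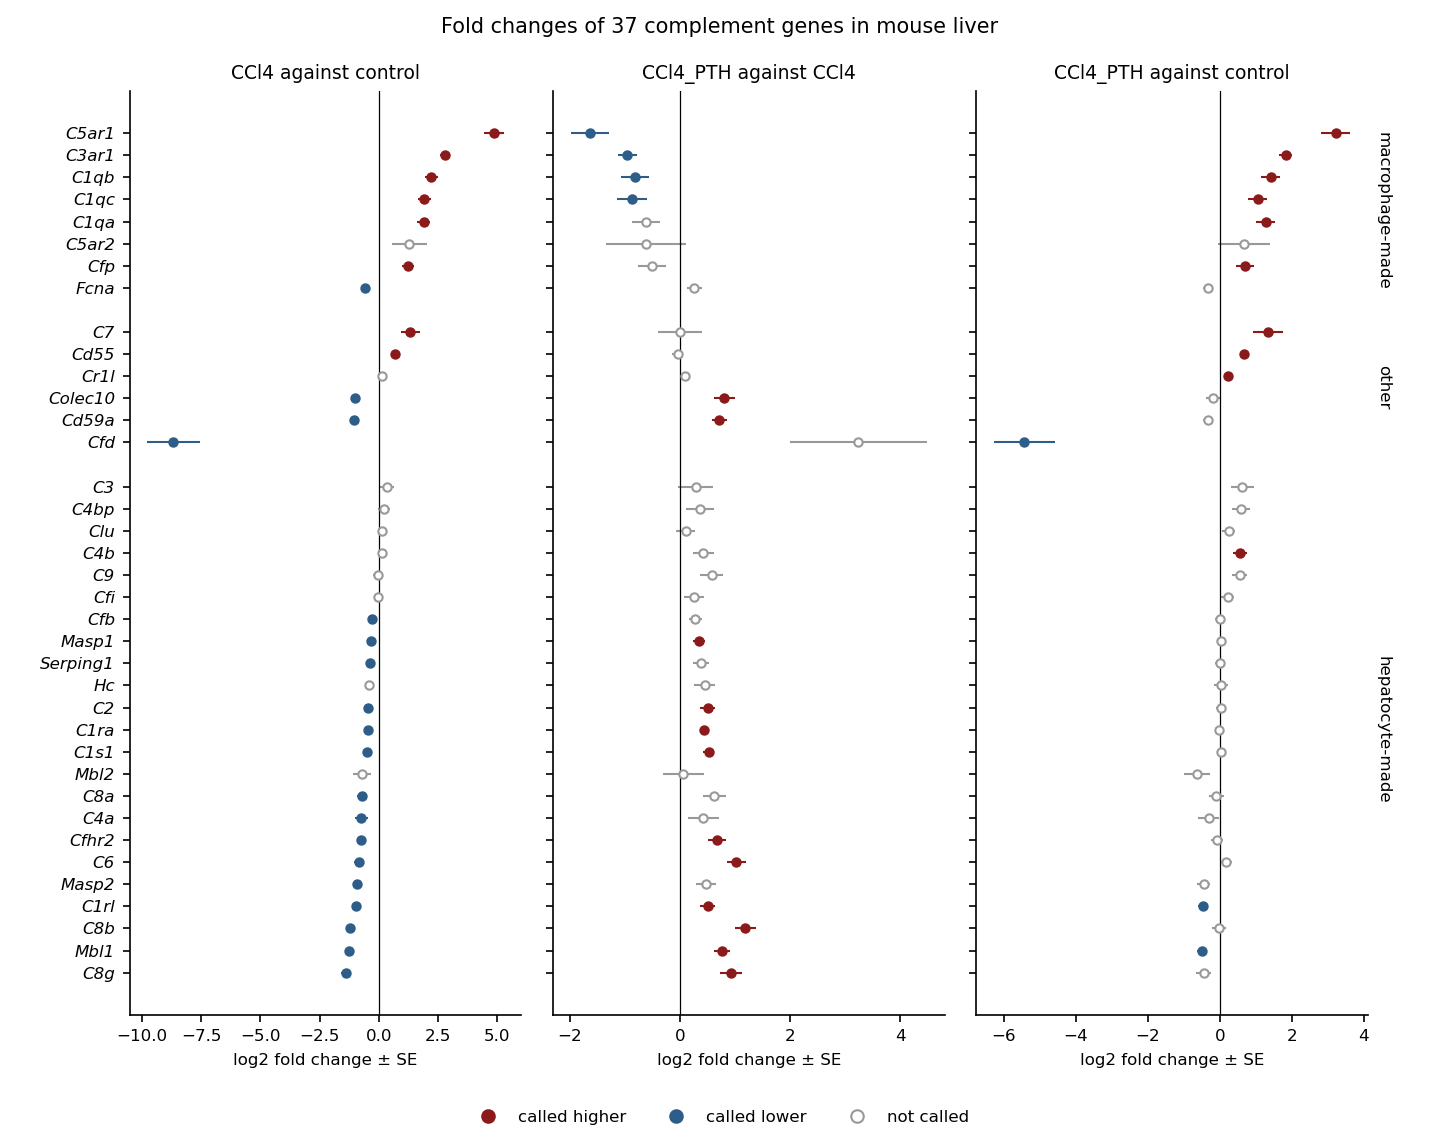
Log2 fold change (x axis, point) with its SE (bar) of 37 complement genes (rows) in 3 comparisons, each panel with its own x range, where filled red points were called higher, filled blue points lower and open points were not called. In the left panel 6 of 8 macrophage-made genes are called right of 0 and 15 of 23 hepatocyte-made genes are called left of it. With library sizes alone as the scale, 4 of the 23 are called lower and 5 higher, where 1061 of all 21840 genes are lower and 11278 higher.

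The scale of the libraries bears on these directions. TMM factors set the bulk of genes near no change. With library sizes alone the median of all genes in CCl4 against control livers moved from 0.05 to 0.63, with 1061 of 21840 called lower and 11278 higher. The median of the 23 hepatocyte-made genes moved to 0.08, with 4 called lower and 5 higher. With library sizes that leave out ribosomal RNA loci the medians were 0.51 for all genes, with 1562 of 21771 lower and 10819 higher, and −0.01 for the hepatocyte-made genes, with 5 lower and 5 higher. Calls, falls and rises described here hold with TMM factors unless another scale is named, and are relative to the typical gene of the same libraries. The macrophage-made genes had 6 higher on each of these scales, and the 1 lower was not called on either of them.

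Levels differed widely between the genes. Per kilobase of exon, C3 led in control livers at 1038 ± 137 CPM per kb (SD, n = 6), followed by Clu at 229 ± 24.5 and Cfb at 176 ± 5.79, with C4b at 160 ± 20.4 close below. The control ranges of Cfb and C4b, 168 to 186 and 140 to 195 CPM per kb, overlapped. Both were measured in the same 6 livers, and their difference within each liver was not tested. At the low end stood C3ar1 at 0.759 ± 0.187, C7 at 0.672 ± 0.218 and C5ar2 at 0.548 ± 0.315, whose ranges overlapped, then C5ar1 at 0.138 ± 0.038 and Fcnb, which had 0 counts in the 6 control libraries. C3 alone held 42.3% to 69.1% of the summed CPM of the 38 genes in CCl4_PTH, 50.5% to 62.9% in CCl4 and 40.1% to 49.5% in control livers.

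**Figure D2:**
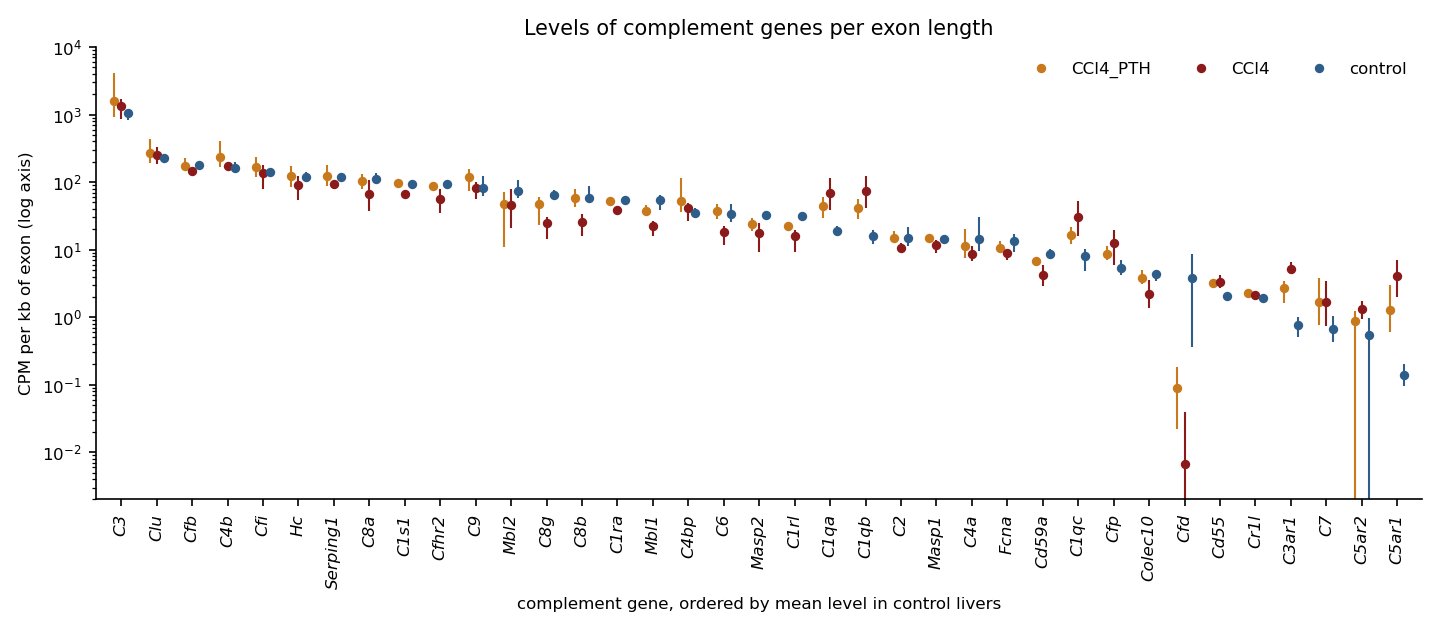
Level of each complement gene per kilobase of exon (y axis, log scale, CPM per kb) in CCl4_PTH, CCl4 and control livers, with genes in the order of their mean level in control livers. Points are means of 6 livers and lines run from the lowest to the highest liver, down to the axis where a liver was at 0; Fcnb, at 0 in all control livers, is not drawn.

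C1q, the recognition molecule of the classical pathway that binds antibody complexes and dying cells, is built from 3 chains whose genes C1qa, C1qc and C1qb lie side by side on chromosome 4 (136880129 to 136898803, GRCm38). Livers given CCl4 had more of all 3 transcripts, and livers given CCl4 with PTH lay in between by their medians. C1qa lay between 30.6 and 63.2 CPM (median 48.0) in CCl4_PTH, between 39.8 and 119 (median 62.1) in CCl4 and between 16.9 and 23.3 (median 18.5) in control livers. C1qb lay between 30.6 and 61.0 CPM (median 46.3) in CCl4_PTH, between 44.7 and 133 (median 67.6) in CCl4 and between 13.4 and 20.99 (median 17.4) in control livers. C1qc lay between 23.0 and 41.9 CPM (median 30.1) in CCl4_PTH, between 30.6 and 100.1 (median 55.8) in CCl4 and between 9.29 and 19.5 (median 15.7) in control livers. In each of the 3 genes every CCl4_PTH and every CCl4 liver was above every control liver, while CCl4_PTH and CCl4 livers overlapped.

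Against control, CCl4 livers were higher by 1.89 ± 0.27 (adjusted p = 1.57e-05) for C1qa, 2.22 ± 0.27 (adjusted p = 3.73e-06) for C1qb and 1.93 ± 0.28 (adjusted p = 2.30e-05) for C1qc. CCl4_PTH livers were higher than control by 1.27 ± 0.26 (adjusted p = 0.00156), 1.41 ± 0.26 (adjusted p = 7.58e-04) and 1.05 ± 0.27 (adjusted p = 0.00832) for C1qa, C1qb and C1qc. Against CCl4, CCl4_PTH livers were lower in C1qb (−0.82 ± 0.26, adjusted p = 0.0470) and in C1qc (−0.88 ± 0.27, adjusted p = 0.0408), and C1qa was not called (−0.62 ± 0.26, adjusted p = 0.121). Both calls were near the threshold. Leaving out 1 library at a time, the C1qb call was lost in 14 of 18 fits, with adjusted p of 0.0568 to 0.149, and the C1qc call in 13, with adjusted p of 0.0512 to 0.132.

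The chains did not keep quite the same proportions. C1qa made up 35.3% to 41.7% of the summed C1q CPM in CCl4_PTH, 33.2% to 35.9% in CCl4 and 36.5% to 39.0% in control livers, so that its share was smaller in every CCl4 liver than in any control liver. Set against general macrophage markers, the summed C1q CPM was 17.8% to 24.3% of the sum of 12 macrophage markers in CCl4_PTH, 20.99% to 25.2% in CCl4 and 17.9% to 18.7% in control livers. Those markers themselves lay between 434 and 875 CPM in CCl4_PTH, between 531 and 1547 in CCl4 and between 235 and 342 in control livers, with 9 of 12 called higher and 1 lower in CCl4 than in control livers and none at 0 in any group. In CCl4_PTH against CCl4 livers 2 of the 12 were lower and 1, the Kupffer cell lectin Clec4f, was higher. Of all genes tested 4.95% were lower and 7.1% higher in that comparison. Another of the 12, Cd163, lay between 1.27 and 6.48 CPM in CCl4_PTH, between 1.59 and 3.64 in CCl4 and between 11.1 and 16.7 in control livers. Of 10 markers of monocyte-derived macrophages, 10 were higher in CCl4 than in control and 6 lower in CCl4_PTH than in CCl4 livers. The part of macrophage number in the C1q result was not tested.

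**Figure D3:**
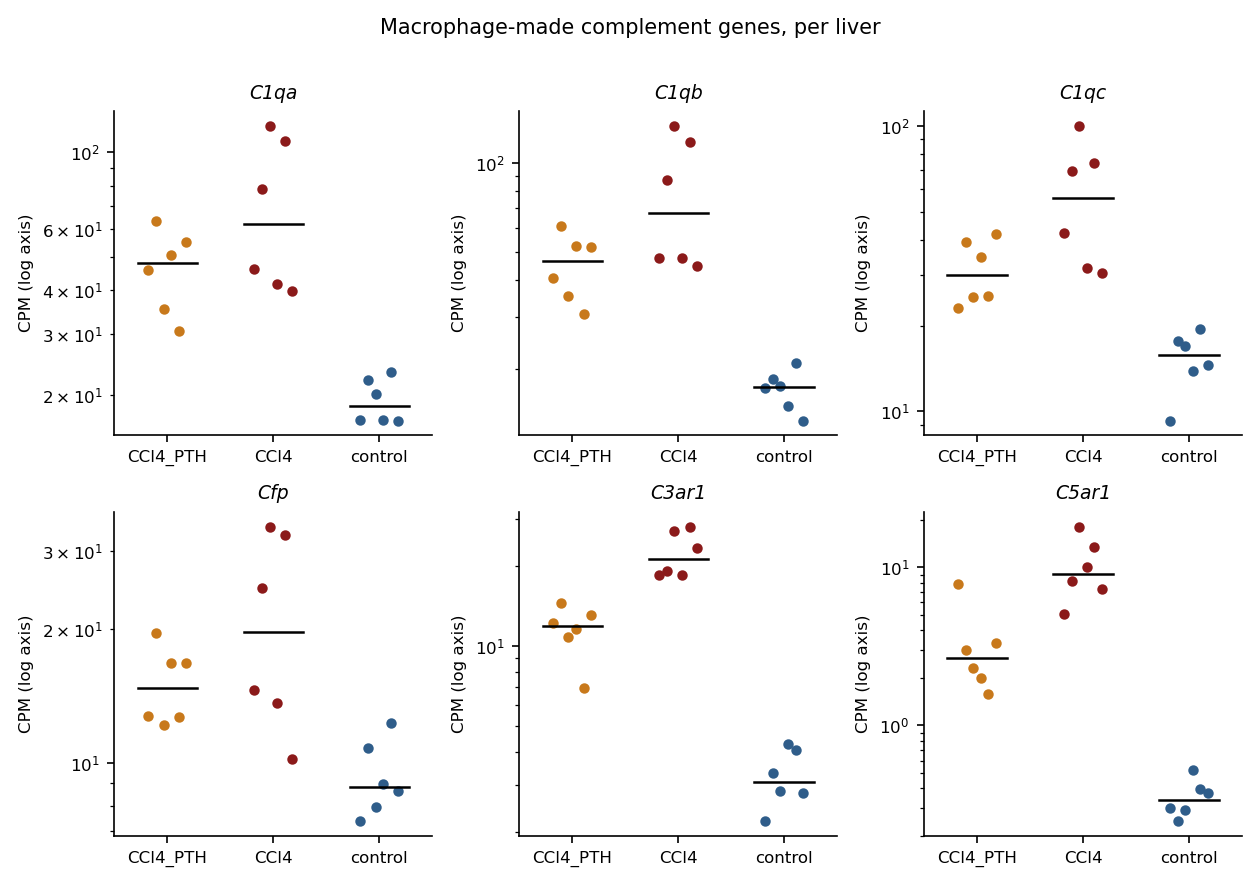
CPM per liver (points, y axis on a log scale) of 6 macrophage-made complement genes in CCl4_PTH, CCl4 and control livers, with the group median as a bar. In C1qa, C1qb, C1qc, C3ar1 and C5ar1 all CCl4 and CCl4_PTH livers lie above all control livers, and in C3ar1 the CCl4_PTH livers also lie below all CCl4 livers.

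Promoters of C1qb and C1qc are shown because both genes were called in all 3 comparisons and both hold GAGGAA, the core bound by the myeloid factor PU.1, in the 300 bases around their start (250 before and 50 after it). The sequences are those of RefSeq on GRCm38.p6, read 5′ to 3′ on the strand of the gene, with GAGGAA or its reverse complement in capitals. C1qb is at chr4:136886151-136886450 and C1qc at chr4:136892865-136893164, both on the minus strand.
C1qb: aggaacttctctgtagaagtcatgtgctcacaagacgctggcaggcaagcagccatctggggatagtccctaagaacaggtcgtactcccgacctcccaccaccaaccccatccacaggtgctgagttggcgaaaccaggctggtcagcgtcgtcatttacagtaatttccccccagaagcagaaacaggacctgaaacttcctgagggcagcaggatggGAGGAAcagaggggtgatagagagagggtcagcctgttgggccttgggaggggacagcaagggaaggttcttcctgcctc
C1qc: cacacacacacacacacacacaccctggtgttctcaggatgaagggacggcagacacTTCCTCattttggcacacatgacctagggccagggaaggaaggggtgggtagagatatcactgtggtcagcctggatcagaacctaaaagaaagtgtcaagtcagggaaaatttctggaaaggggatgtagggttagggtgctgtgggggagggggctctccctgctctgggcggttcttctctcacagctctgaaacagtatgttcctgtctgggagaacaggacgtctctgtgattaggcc
On either strand GAGGAA was in the promoters of 4 of the 8 macrophage-made genes with an entry (Fcna, C1qb, C1qc and Cfp), in 1 of 15 hepatocyte-made genes, and in 28.3% of 32851 mouse promoters of the same length. The receptor genes C3ar1 and C5ar1 had no GAGGAA in this window. Entries were found for 28 of the 38 genes, and C1qa was not among them.

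Mannose-binding lectins, ficolins and collectins are soluble lectins that bind microbial sugars and start the lectin pathway. Of the 3 made outside macrophages, Mbl1 and Colec10 fell after CCl4 and Mbl2 was not called. Mbl1, which encodes mannose-binding lectin A, lay between 52.5 and 70.7 CPM (median 58.2) in CCl4_PTH, between 24.7 and 41.4 (median 36.7) in CCl4 and between 60.2 and 102 (median 89.1) in control livers. It was lower in CCl4 than in control livers (−1.26 ± 0.15, adjusted p = 2.23e-06) and higher in CCl4_PTH than in CCl4 livers (0.76 ± 0.15, adjusted p = 0.00401), with no overlap between the groups in either comparison. Against control, CCl4_PTH livers were lower in Mbl1 (−0.50 ± 0.15, adjusted p = 0.0156), with overlapping groups, and with library sizes alone that difference turned to 0.013.

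Mbl2, the other mannose-binding lectin gene (protein C), lay between 11.9 and 77.7 CPM (median 55.1) in CCl4_PTH, between 22.9 and 86.6 (median 54.7) in CCl4 and between 64.1 and 116 (median 76.5) in control livers. The groups overlapped widely, and the differences of −0.70 ± 0.37 (adjusted p = 0.127) for CCl4 against control, 0.061 ± 0.37 (adjusted p = 0.939) for CCl4_PTH against CCl4 and −0.64 ± 0.37 (adjusted p = 0.209) for CCl4_PTH against control were not called. Colec10, the collectin CL-L1, lay between 14.2 and 23.2 CPM (median 16.5) in CCl4_PTH, between 6.23 and 16.1 (median 10.2) in CCl4 and between 15.6 and 23.0 (median 20.3) in control livers. Its level was lower in CCl4 than in control livers (−0.99 ± 0.19, adjusted p = 3.10e-04) and higher in CCl4_PTH than in CCl4 livers (0.80 ± 0.19, adjusted p = 0.0118), while CCl4_PTH against control gave −0.19 ± 0.19 (adjusted p = 0.490). With library sizes alone the fall of Colec10 in CCl4 against control livers was not called.

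Fcna, the mouse ficolin A of tissue macrophages, was the one macrophage-made gene called lower after CCl4. It lay between 12.5 and 18.3 CPM (median 13.7) in CCl4_PTH, between 9.67 and 14.1 (median 12.4) in CCl4 and between 12.6 and 23.6 (median 17.6) in control livers. CCl4 livers were lower than control (−0.59 ± 0.14, adjusted p = 0.00206) with overlapping groups, a difference that turned to 0.036 with library sizes alone. CCl4_PTH livers gave 0.26 ± 0.14 (adjusted p = 0.251) against CCl4 and −0.33 ± 0.14 (adjusted p = 0.0874) against control, neither called. Relative to the 12 macrophage markers, Fcna amounted to 1.77% to 3.08% in CCl4_PTH, 0.860% to 2.13% in CCl4 and 5.35% to 7.03% in control livers, with no overlap between control and either other group. An antisense transcript, Fcnaos, overlaps Fcna, and the sources used here do not say whether counting used strand. Fcnb, ficolin B of neutrophils and monocytes in mice, had 21 counts over the 6 CCl4_PTH libraries, 36 over the 6 CCl4 libraries and 0 over the 6 control libraries, too few to test.

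Of the 5 serine proteases of the early pathways, 3 ride on or resemble parts of C1 and 2 ride on the lectins. All 5 were called lower in CCl4 than in control livers with TMM factors, 4 were called higher in CCl4_PTH than in CCl4 livers, and 1 was lower in CCl4_PTH than in control livers. Of all genes tested, 21.2% were lower in the first comparison, 7.1% higher in the second and 10.3% lower in the third. With library sizes alone 1 of the 5 was called lower, and the differences of C1ra, C1s1 and Masp1 turned positive without being called. On that scale none of the 4 rises in CCl4_PTH against CCl4 livers was called, and CCl4_PTH against control had 3 higher and 0 lower. Without ribosomal RNA loci 0 were higher and 2 lower in CCl4 against control. On that scale 2 were higher and 0 lower both in CCl4_PTH against CCl4 and in CCl4_PTH against control. Of all 21771 genes it called 1562 lower in CCl4 against control. It called 764 higher in CCl4_PTH against CCl4 and 6893 higher in CCl4_PTH against control. Of all 21840 genes, library sizes alone called 1061 lower in CCl4 and 9564 higher in CCl4_PTH, each against control.

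C1ra encodes C1r, the protease that activates the C1 complex. It lay between 142 and 175 CPM (median 160.5) in CCl4_PTH, between 109 and 120.3 (median 119) in CCl4 and between 153 and 179 (median 161) in control livers. CCl4 livers were below every CCl4_PTH and every control liver, with −0.48 ± 0.078 (adjusted p = 6.86e-05) against control and 0.44 ± 0.078 (adjusted p = 0.00243) for CCl4_PTH against CCl4, while CCl4_PTH against control gave −0.037 ± 0.078 (adjusted p = 0.769). C1s1 encodes C1s, which cleaves C4 and C2, and lay between 267 and 322 CPM (median 308) in CCl4_PTH, between 188 and 237 (median 206) in CCl4 and between 269 and 339 (median 292) in control livers. The pattern was the same, with −0.48 ± 0.095 (adjusted p = 3.67e-04) for CCl4 against control, 0.52 ± 0.095 (adjusted p = 0.00283) for CCl4_PTH against CCl4 and 0.036 ± 0.095 (adjusted p = 0.814) for CCl4_PTH against control. Both have close copies in the mouse genome, C1rb and C1s2, to which reads may have been assigned.

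C1rl, which encodes a C1r-like protease, lay between 57.6 and 74.8 CPM (median 70.1) in CCl4_PTH, between 28.0 and 58.7 (median 49.8) in CCl4 and between 82.2 and 101 (median 95.6) in control livers. It stayed below control in both other groups without overlap, at −0.96 ± 0.14 (adjusted p = 1.40e-05) for CCl4 and −0.46 ± 0.13 (adjusted p = 0.0152) for CCl4_PTH against control, and rose by 0.50 ± 0.13 (adjusted p = 0.0212) in CCl4_PTH against CCl4 livers. The rise missed the threshold without CCl4_PTH 7 (adjusted p = 0.0513). The difference of CCl4_PTH from control turned to 0.020 with library sizes alone. Masp1 and Masp2 encode the proteases of the lectin pathway. Masp1 lay between 131 and 161 CPM (median 147) in CCl4_PTH, between 86.7 and 138 (median 119) in CCl4 and between 130.3 and 157 (median 140.4) in control livers, with −0.32 ± 0.11 (adjusted p = 0.0208) for CCl4 against control and 0.34 ± 0.11 (adjusted p = 0.0437) for CCl4_PTH against CCl4, and overlapping groups in both. Without CCl4 4 the fall of Masp1 had an adjusted p of 0.0588, and its rise in CCl4_PTH livers was lost in 6 of 18 such fits, with adjusted p of 0.0596 to 0.108. Masp2 lay between 61.4 and 98.2 CPM (median 77.7) in CCl4_PTH, between 30.1 and 83.3 (median 55.8) in CCl4 and between 95.0 and 122 (median 110.4) in control livers and was lower in CCl4 than in control livers without overlap (−0.91 ± 0.18, adjusted p = 4.40e-04). The differences of CCl4_PTH from CCl4 (0.46 ± 0.18, adjusted p = 0.104) and from control (−0.45 ± 0.18, adjusted p = 0.0725) in Masp2 were not called, nor was that from control in Masp1 (0.026 ± 0.11, adjusted p = 0.887).

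C1rl, C1ra and C1s1 are neighbours on chromosome 6 (124493113 to 124542359, GRCm38). The promoters of C1rl and C1ra are shown because both were called lower in CCl4 and higher in CCl4_PTH against CCl4 livers with TMM factors. Both also hold TTGCNNAA on either strand. Capitals mark TTGCNNAA or its reverse complement, a form of the site bound by C/EBP, a family of liver transcription factors. C1rl is at chr6:124492863-124493162 and C1ra at chr6:124512371-124512670, both on the plus strand.
C1rl: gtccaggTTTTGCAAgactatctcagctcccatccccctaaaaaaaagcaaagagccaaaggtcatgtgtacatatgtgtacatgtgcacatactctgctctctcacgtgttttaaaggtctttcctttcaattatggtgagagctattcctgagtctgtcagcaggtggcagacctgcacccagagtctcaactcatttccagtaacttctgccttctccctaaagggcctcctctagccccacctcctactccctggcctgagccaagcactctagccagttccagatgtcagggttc
C1ra: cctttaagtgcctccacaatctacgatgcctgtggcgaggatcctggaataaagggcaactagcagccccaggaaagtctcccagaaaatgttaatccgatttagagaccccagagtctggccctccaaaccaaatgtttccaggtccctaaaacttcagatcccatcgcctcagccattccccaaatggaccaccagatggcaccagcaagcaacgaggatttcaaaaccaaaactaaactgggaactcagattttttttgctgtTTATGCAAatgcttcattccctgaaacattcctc
TTGCNNAA was in 5 of 15 hepatocyte-made promoters (C1rl, C1ra, C1s1, C9 and C3), in 2 of 8 macrophage-made promoters (Fcnb and C5ar2) and in 10.8% of all promoters, on either strand. The promoters of Mbl1, C6, C8b, C8g and Cfhr2, called in the same directions in both comparisons, held no TTGCNNAA.

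C4 and C2 form the C3 convertase of the classical and lectin pathways, and their genes, with that of factor B, lie in the major histocompatibility region of chromosome 17. C4b, which encodes mouse C4, was high in all groups and lay between 940.0 and 2311 CPM (median 1227) in CCl4_PTH, between 866 and 1120.3 (median 1018) in CCl4 and between 797 and 1113 (median 901) in control livers. It was called in CCl4_PTH against control (0.56 ± 0.19, adjusted p = 0.0299) and not in CCl4 against control (0.14 ± 0.19, adjusted p = 0.569) or CCl4_PTH against CCl4 (0.42 ± 0.19, adjusted p = 0.144). Without CCl4_PTH 1, where C4b was at 2311 CPM, the difference from control was 0.32 with an adjusted p of 0.0781. The call was also lost without control 2, 3, 5 or 8, each alone, with adjusted p of 0.0552 to 0.0701. C4b was also called higher with library sizes alone in CCl4 than in control livers, at 0.68 (adjusted p = 0.00814).

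C4a, a near copy of C4b known as sex-limited protein, lay between 46.2 and 126 CPM (median 59.3) in CCl4_PTH, between 42.8 and 69.5 (median 50.0) in CCl4 and between 58.6 and 191 (median 67.8) in control livers. CCl4 livers were lower than control (−0.73 ± 0.29, adjusted p = 0.0427) with overlapping groups, and without control 1, the liver at 191 CPM, the difference was −0.39 (adjusted p = 0.133). The call was also lost without CCl4 4, 5, 7 or 8 or CCl4_PTH 7, each alone, with adjusted p of 0.0504 to 0.081, and with library sizes alone (−0.26, adjusted p = 0.536). Differences of 0.42 ± 0.29 (adjusted p = 0.372) for CCl4_PTH against CCl4 and −0.31 ± 0.28 (adjusted p = 0.447) against control were not called. C4a made up 4.24% to 6.13% of C4a and C4b together in CCl4_PTH, 3.78% to 5.88% in CCl4 and 6.28% to 14.6% in control livers, so that control livers had the larger share throughout. Because the copies are nearly identical, the split of reads between them is uncertain.

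C2 lay between 49.8 and 73.4 CPM (median 55.6) in CCl4_PTH, between 36.9 and 48.9 (median 39.8) in CCl4 and between 43.2 and 83.5 (median 53.2) in control livers. It was lower in CCl4 than in control livers (−0.47 ± 0.13, adjusted p = 0.00747), where the groups overlapped and the difference turned to 0.064 with library sizes alone, and higher in CCl4_PTH than in CCl4 livers (0.50 ± 0.13, adjusted p = 0.0208) without overlap, a call lost without CCl4 4 (adjusted p = 0.0519) or CCl4_PTH 6 (adjusted p = 0.0521). CCl4_PTH against control gave 0.032 ± 0.13 (adjusted p = 0.886). An unnamed transcript model, Gm20547, overlaps C2 and Cfb on the same strand.

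C3, the protein on which all pathways converge, was the most abundant member in each group and lay between 4755 and 21159 CPM (median 5899) in CCl4_PTH, between 4441 and 8721 (median 6802) in CCl4 and between 4231 and 5881 (median 5685) in control livers. With TMM factors none of its differences was called, with 0.34 ± 0.32 (adjusted p = 0.396) for CCl4 against control, 0.28 ± 0.32 (adjusted p = 0.622) for CCl4_PTH against CCl4 and 0.63 ± 0.32 (adjusted p = 0.152) for CCl4_PTH against control. One liver, CCl4_PTH 1, had 21159 CPM, and the other 5 of its group reached 6411 CPM at most. Without it CCl4_PTH against CCl4 was −0.24 (adjusted p = 0.42) and CCl4_PTH against control 0.069 (adjusted p = 0.817). C3 was called higher with library sizes alone in CCl4 (0.91, adjusted p = 0.0104) and in CCl4_PTH (1.10, adjusted p = 0.00457) than in control livers. The liver CCl4_PTH 1 also had the acute phase sum of 51144 CPM; over the groups, 9 of the 16 acute phase genes were higher and 1 lower in CCl4 than in control livers, and 11 were higher in CCl4_PTH than in control livers. The part of the acute phase in the C3 values was not tested.

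Cfb, factor B of the alternative pathway convertase, lay between 408 and 650.2 CPM (median 482) in CCl4_PTH, between 367 and 440.4 (median 415) in CCl4 and between 474 and 525 (median 496) in control livers. CCl4 livers lay below all control livers and the difference of −0.29 ± 0.11 (adjusted p = 0.0447) was small and near the threshold; it turned to 0.28 with library sizes alone and was not called without CCl4 4, CCl4 7 or CCl4_PTH 7, each alone (adjusted p of 0.0539 to 0.095). CCl4_PTH livers gave 0.28 ± 0.11 (adjusted p = 0.120) against CCl4 and −0.0099 ± 0.11 (adjusted p = 0.960) against control. Cfp encodes properdin, which stabilises that convertase, and lay between 12.2 and 19.7 CPM (median 14.8) in CCl4_PTH, between 10.2 and 34.1 (median 19.7) in CCl4 and between 7.38 and 12.3 (median 8.80) in control livers. It was higher in CCl4 (1.22 ± 0.26, adjusted p = 7.26e-04) and in CCl4_PTH livers (0.70 ± 0.25, adjusted p = 0.0472) than in control, with overlap in both, and CCl4_PTH against CCl4 gave −0.52 ± 0.25 (adjusted p = 0.193). The call of CCl4_PTH against control was lost in 11 of 18 fits that each left out 1 library, with adjusted p of 0.0505 to 0.111.

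Cfd had the largest fall of the 38 genes in CCl4 livers. It encodes factor D or adipsin, the protease that cleaves factor B and is made mainly by fat cells. Its 6 CCl4_PTH livers lay between 0.0201 and 0.171 CPM (median 0.0485, 53 counts in all). In CCl4, 5 of 6 livers had 0 counts and liver 7 had 4 counts or 0.0369 CPM, while control livers lay between 0.336 and 7.83 CPM (median 3.40, 1282 counts). No CCl4_PTH or CCl4 liver reached the lowest control liver, and control livers themselves fell apart, with 0.336 and 0.412 CPM in 2 livers and 5.40 to 7.83 CPM in 3. Against control, Cfd gave −8.67 ± 1.10 (adjusted p = 6.02e-06) in CCl4 and −5.43 ± 0.84 (adjusted p = 1.62e-04) in CCl4_PTH livers, and the difference of 3.24 ± 1.24 (adjusted p = 0.0973) between CCl4_PTH and CCl4 was not called.

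Of 10 fat cell markers the defining Adipoq, Plin1 and Lep were at or near 0 in every group, and others were expressed. Adipoq, which encodes adiponectin, had 11 counts over the 6 CCl4_PTH libraries and 0 over the CCl4 and the control libraries, Plin1, a lipid droplet protein, had 15, 23 and 6 counts over the CCl4_PTH, CCl4 and control libraries, and Lep, which encodes leptin, had 0 in all. Of the 10 markers 5 passed the filter, with 3 lower and 1 higher in CCl4 than in control livers. Cidea, a lipid droplet protein, had 35, 36 and 550 counts over the CCl4_PTH, CCl4 and control libraries and was lower in CCl4 than in control livers (−4.48 ± 1.47, adjusted p = 0.0180), as were the beta-3 adrenergic receptor gene Adrb3 (−1.91 ± 0.36, adjusted p = 2.32e-04) and the lipase gene Lipe (−0.58 ± 0.15, adjusted p = 0.00293). Fabp4, a fatty acid carrier of fat cells and macrophages, was higher (2.06 ± 0.20, adjusted p = 2.51e-07), and Cidec, another lipid droplet gene, was not called (0.024 ± 0.49, adjusted p = 0.973). The sum of the 10 lay between 17.5 and 23.6 CPM in CCl4_PTH, between 23.1 and 33.7 in CCl4 and between 20.5 and 39.4 in control livers. The part of fat cells in the Cfd result was not tested.

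The terminal components, which insert into target membranes, are hepatocyte products except for C7. Of the 7 genes tested 4 were called lower and 1 higher in CCl4 than in control livers, 3 were called higher in CCl4_PTH than in CCl4 livers, and 1 was higher in CCl4_PTH than in control livers. Of all genes tested, 21.2% were lower and 26.3% higher in the first comparison, 7.1% higher in the second and 17.4% higher in the third. The 1 of 7 higher against control, 14.3% in each case, was below the share of all genes. With library sizes alone 2 of the 4 falls were called, those of C6 and C8a being lost, and 4 genes were higher in CCl4_PTH than in control livers, among them C6 (0.62), C9 (0.998) and Hc (0.50). On that scale 9564 of all 21840 genes were higher in CCl4_PTH than in control livers.

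C8 is a complex of alpha, beta and gamma chains. C8b, the beta chain, lay between 109.6 and 203 CPM (median 137) in CCl4_PTH, between 40.3 and 85.6 (median 65.6) in CCl4 and between 129 and 220.5 (median 134) in control livers. All CCl4 livers were below all CCl4_PTH and all control livers, with −1.20 ± 0.19 (adjusted p = 5.17e-05) against control and 1.18 ± 0.19 (adjusted p = 0.00128) for CCl4_PTH against CCl4, whereas CCl4_PTH and control livers overlapped (−0.019 ± 0.19, adjusted p = 0.953). C8g, the gamma chain, lay between 34.3 and 90.6 CPM (median 75.2) in CCl4_PTH, between 21.6 and 45.8 (median 38.8) in CCl4 and between 86.4 and 114 (median 91.7) in control livers. It was lower in CCl4 than in control livers without overlap (−1.38 ± 0.21, adjusted p = 2.59e-05) and higher in CCl4_PTH than in CCl4 livers (0.93 ± 0.20, adjusted p = 0.00769), where the single liver CCl4_PTH 1 at 34.3 CPM lay within the CCl4 range. CCl4_PTH against control gave −0.45 ± 0.20 (adjusted p = 0.104) in C8g.

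C8a, the alpha chain, lay between 285 and 479 CPM (median 349.8) in CCl4_PTH, between 136 and 388 (median 235) in CCl4 and between 356 and 492 (median 384) in control livers. The fall in CCl4 livers was −0.72 ± 0.20 (adjusted p = 0.00661) with overlapping groups, and the difference of CCl4_PTH from CCl4, 0.62 ± 0.20 (adjusted p = 0.0522), missed the threshold; it was called without CCl4_PTH 1, at 0.66 (adjusted p = 0.0372), and by DESeq2. CCl4_PTH against control was −0.10 ± 0.20 (adjusted p = 0.755). C6, the next component after C5, lay between 99.4 and 167 CPM (median 129.7) in CCl4_PTH, between 41.1 and 80.3 (median 70.9) in CCl4 and between 91.8 and 168 (median 114) in control livers. CCl4 livers were below all others, with −0.85 ± 0.18 (adjusted p = 6.17e-04) against control, and CCl4_PTH livers were higher than CCl4 by 1.02 ± 0.18 (adjusted p = 0.0020). CCl4_PTH against control gave 0.17 ± 0.18 (adjusted p = 0.509) in C6.

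C9, which polymerises into the pore, lay between 191 and 403 CPM (median 319) in CCl4_PTH, between 142 and 261 (median 218) in CCl4 and between 157 and 316 (median 203) in control livers. It was not called in CCl4 against control (−0.030 ± 0.21, adjusted p = 0.918), CCl4_PTH against CCl4 (0.58 ± 0.21, adjusted p = 0.0752) or CCl4_PTH against control (0.55 ± 0.21, adjusted p = 0.0559). Without CCl4_PTH 1 both CCl4_PTH comparisons were called, at 0.70 (adjusted p = 0.0186) against CCl4 and 0.64 (adjusted p = 0.0215) against control. Hc, the gene of C5, lay between 526 and 1068 CPM (median 775) in CCl4_PTH, between 340.3 and 772 (median 569.6) in CCl4 and between 622 and 897 (median 746) in control livers. Its differences of −0.41 ± 0.19 (adjusted p = 0.0949) for CCl4 against control, 0.44 ± 0.20 (adjusted p = 0.146) for CCl4_PTH against CCl4 and 0.038 ± 0.19 (adjusted p = 0.910) for CCl4_PTH against control were not called.

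C7 was taken as a product of mixed cells and rose. It lay between 2.06 and 10.3 CPM (median 3.46) in CCl4_PTH, between 2.0 and 9.08 (median 3.58) in CCl4 and between 1.16 and 2.79 (median 1.65) in control livers. CCl4 livers were higher than control by 1.33 ± 0.41 (adjusted p = 0.0122) and CCl4_PTH livers by 1.34 ± 0.41 (adjusted p = 0.0210), with overlapping groups, and CCl4_PTH against CCl4 gave 0.0038 ± 0.40 (adjusted p = 0.997). Without CCl4_PTH 1, at 10.3 CPM the highest liver, the difference of CCl4_PTH from control was 0.91 (adjusted p = 0.0694). Of 12 stellate cell and fibroblast markers, 9 were higher and 1 lower in CCl4 than in control livers, and their sum lay between 590 and 967 CPM in CCl4_PTH, between 551 and 899 in CCl4 and between 324 and 427 in control livers. The part of such cells in the C7 result was not tested.

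**Figure D4:**
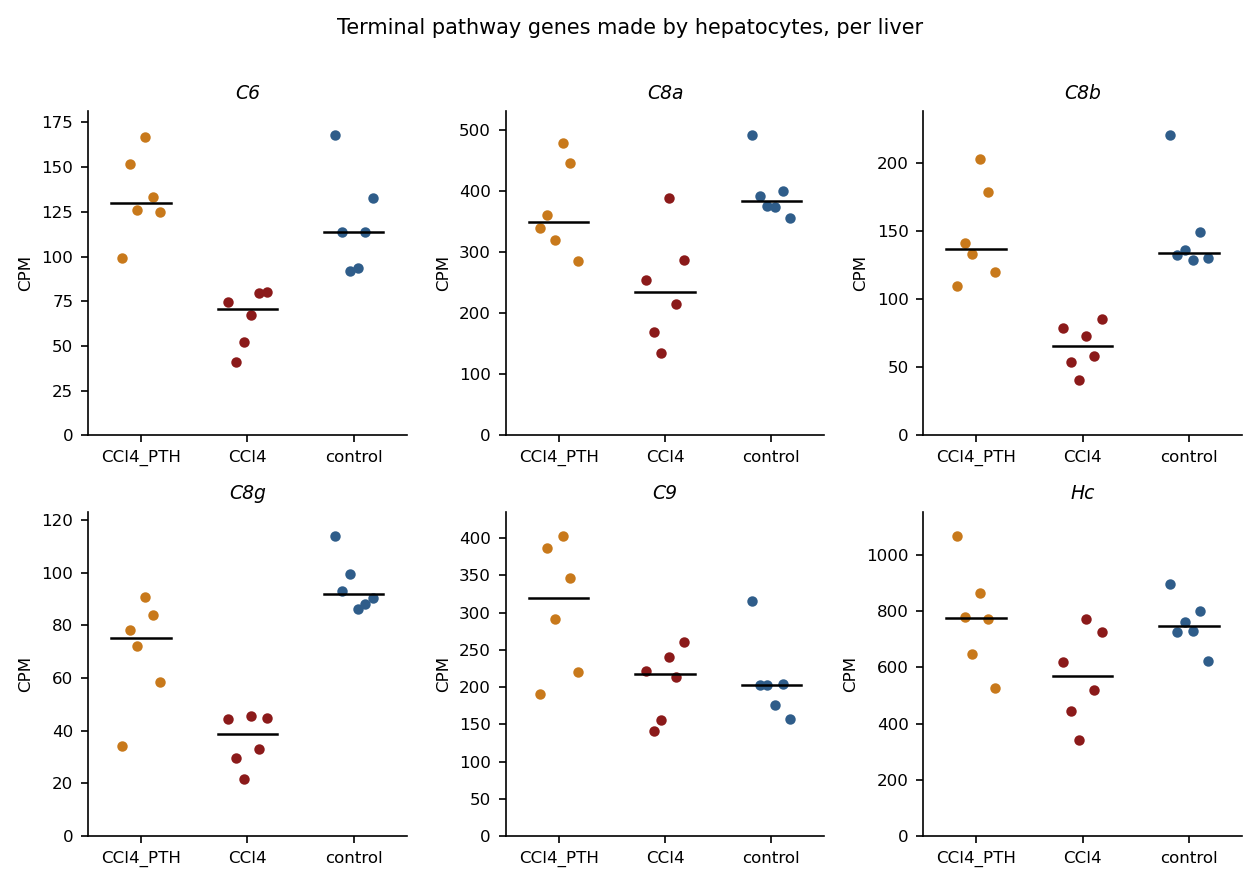
CPM per liver (points) of 6 hepatocyte-made genes of the terminal pathway in CCl4_PTH, CCl4 and control livers, with the group median as a bar and axes that start at 0. In C6 and C8b all CCl4 livers lie below all CCl4_PTH and all control livers; C9 and Hc were called in none of the 3 comparisons with TMM factors.

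In mice, males carry more of the terminal components in plasma than females, and a list of 10 male-biased liver genes was set beside them. Of these 10, 9 were lower in CCl4 than in control livers and 7 were higher in CCl4_PTH than in CCl4 livers, and their sum lay between 898 and 4611 CPM (median 2784) in CCl4_PTH, between 382 and 2448 (median 1495) in CCl4 and between 2863 and 5023 (median 3743) in control livers. Of the hepatocyte markers, 7 of 11 were lower in CCl4 than in control livers and 1 was higher in CCl4_PTH than in CCl4 livers. Per hepatocyte marker CPM, C8b amounted to 0.174% to 0.370% in CCl4_PTH, 0.122% to 0.157% in CCl4 and 0.184% to 0.309% in control livers, so that the CCl4 livers stayed lowest without overlap. The part of either list in the C6 and C8 values was not tested.

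C8a and C8b are neighbours on chromosome 4 (104766317 to 104876398, GRCm38). Their promoters are shown because both chains were called lower in CCl4 than in control livers and both hold GTTAAT on either strand. Capitals mark GTTAAT or its reverse complement, the core of the site bound by the hepatocyte factor HNF1. C8a is at chr4:104876349-104876648 on the minus strand and C8b at chr4:104766067-104766366 on the plus strand.
C8a: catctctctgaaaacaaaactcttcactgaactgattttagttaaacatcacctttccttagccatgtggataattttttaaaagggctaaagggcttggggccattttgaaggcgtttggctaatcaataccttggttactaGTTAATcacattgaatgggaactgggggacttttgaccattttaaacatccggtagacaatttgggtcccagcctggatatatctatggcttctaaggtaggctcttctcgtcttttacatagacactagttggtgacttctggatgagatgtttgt
C8b: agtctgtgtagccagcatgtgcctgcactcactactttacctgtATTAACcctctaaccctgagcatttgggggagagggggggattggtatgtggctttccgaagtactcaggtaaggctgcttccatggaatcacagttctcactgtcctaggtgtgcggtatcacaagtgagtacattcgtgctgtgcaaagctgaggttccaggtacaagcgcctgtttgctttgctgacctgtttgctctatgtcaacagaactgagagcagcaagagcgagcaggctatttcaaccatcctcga
On either strand GTTAAT was in 6 of 15 hepatocyte-made promoters (C4bp, Cfhr2, Hc, C8b, C8a and C1ra), of which Hc and C4bp were called in no comparison with TMM factors, in 1 of 8 macrophage-made promoters (Cfp) and in 7.1% of all promoters. The promoters of C8g, C6, Mbl1, C1s1, C1rl and Masp2, also called lower in CCl4 than in control livers, held no GTTAAT. TTCNNNGAA, the motif of STAT factors, was in 4 of the 15 (Cfhr2, C8a, Masp2 and C1ra), in none of the 8 and in 8.3% of all promoters.

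Of the 5 genes of soluble inhibitors 2 were lower in CCl4 than in control livers, where 21.2% of all genes tested were lower. In CCl4_PTH against CCl4 livers 1 was higher, where 7.1% of all genes were. In CCl4_PTH against control edgeR called 0, 1 had an unadjusted p under 0.05 and DESeq2 also called 0. These counts turned with the scale: with library sizes alone 3 were higher and 0 lower in CCl4 against control, and 4 higher and 0 lower in CCl4_PTH against control, and without ribosomal RNA loci 3 were higher and 0 lower in each. Of all 21840 genes, library sizes alone called 11278 higher in CCl4 and 9564 in CCl4_PTH, each against control. Without ribosomal RNA loci 10819 and 6893 of all 21771 genes were higher, in the same order. Cfhr2, which encodes a soluble plasma regulator, lay between 146 and 187 CPM (median 180.4) in CCl4_PTH, between 66.5 and 151 (median 110.0) in CCl4 and between 165 and 211 (median 175) in control livers. It was lower in CCl4 than in control livers without overlap (−0.74 ± 0.16, adjusted p = 9.90e-04) and higher in CCl4_PTH than in CCl4 livers (0.66 ± 0.16, adjusted p = 0.0135), with −0.074 ± 0.16 (adjusted p = 0.775) for CCl4_PTH against control. Neither call of Cfhr2 held with library sizes alone, at −0.20 (adjusted p = 0.339) and 0.60 (adjusted p = 0.0536), and without ribosomal RNA loci the fall was −0.30 (adjusted p = 0.0624). Serping1 encodes C1 inhibitor, which blocks C1r, C1s and the MASPs, and lay between 206 and 414 CPM (median 273) in CCl4_PTH, between 191 and 237 (median 218) in CCl4 and between 245 and 307 (median 285) in control livers. Its fall in CCl4 livers, −0.37 ± 0.14 (adjusted p = 0.0311) without overlap, turned to 0.22 with library sizes alone, and CCl4_PTH gave 0.38 ± 0.14 (adjusted p = 0.0773) against CCl4 and 0.0060 ± 0.14 (adjusted p = 0.980) against control. Serping1 was called higher with library sizes alone in CCl4_PTH than in control livers, at 0.49 (adjusted p = 0.0203).

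Cfi encodes factor I, the protease that degrades C3b and C4b, and lay between 266 and 517 CPM (median 353) in CCl4_PTH, between 176 and 395 (median 310.3) in CCl4 and between 285 and 338 (median 325) in control livers. C4bp, C4b-binding protein and a cofactor of factor I, lay between 245 and 773 CPM (median 267) in CCl4_PTH, between 181 and 333 (median 294) in CCl4 and between 203 and 277 (median 222) in control livers. Clu encodes clusterin, which keeps C5b-9 out of membranes, and lay between 653 and 1494 CPM (median 866) in CCl4_PTH, between 636 and 1124 (median 865) in CCl4 and between 673 and 873 (median 806) in control livers. With TMM factors these 3 genes were called in no comparison. Their differences for CCl4 against control were −0.037 ± 0.18 (adjusted p = 0.885) in Cfi, 0.22 ± 0.25 (adjusted p = 0.487) in C4bp and 0.15 ± 0.18 (adjusted p = 0.518) in Clu. For CCl4_PTH against CCl4 they were 0.26 ± 0.18 (adjusted p = 0.382), 0.36 ± 0.25 (adjusted p = 0.383) and 0.10 ± 0.18 (adjusted p = 0.773), and for CCl4_PTH against control 0.22 ± 0.18 (adjusted p = 0.383), 0.58 ± 0.25 (adjusted p = 0.0894) and 0.25 ± 0.18 (adjusted p = 0.318), in the order Cfi, C4bp, Clu. All 3 were called higher with library sizes alone, in CCl4 than in control livers at 0.50 in Cfi, 0.75 in C4bp and 0.73 in Clu, and in CCl4_PTH than in control livers at 0.69 in Cfi, 1.03 in C4bp and 0.74 in Clu. In all 3 the highest CCl4_PTH liver was CCl4_PTH 1.

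**Figure D5:**
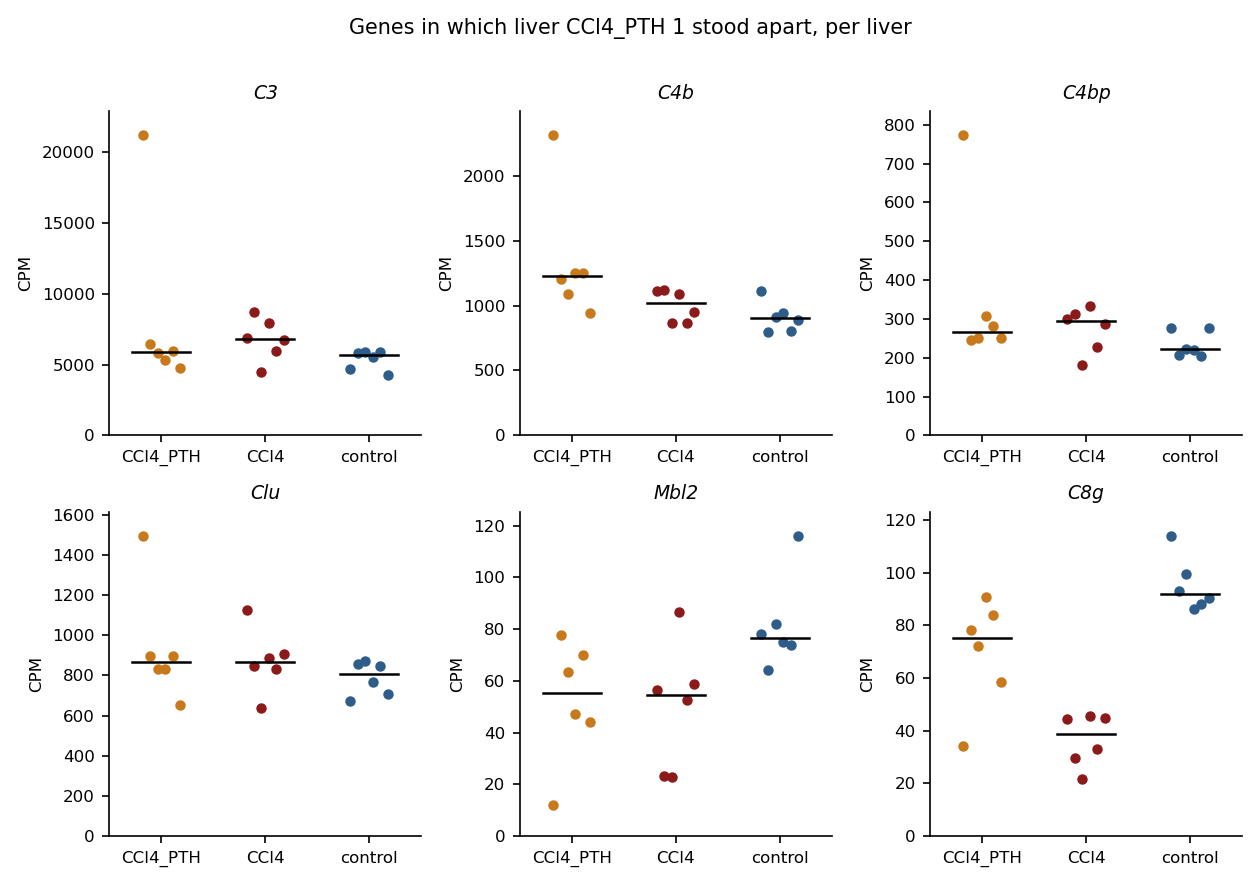
CPM per liver (points) of 6 hepatocyte-made genes in CCl4_PTH, CCl4 and control livers, with the group median as a bar and axes that start at 0. The liver CCl4_PTH 1 is the highest of all 18 in C3 (21159 CPM), C4b (2311), C4bp (773) and Clu (1494) and the lowest of its group in Mbl2 (11.9) and C8g (34.3).

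Membrane regulators protect host cells from their own complement, and 1 of the 3 genes was called higher and 1 lower in CCl4 than in control livers. Each count was 33.3% of the 3 genes, not far from the 26.3% higher and 21.2% lower of all genes tested. Cd55, decay-accelerating factor, lay between 14.3 and 16.7 CPM (median 15.5) in CCl4_PTH, between 13.3 and 20.3 (median 14.7) in CCl4 and between 8.41 and 11.2 (median 9.85) in control livers. Every CCl4_PTH and every CCl4 liver was above every control liver, by 0.66 ± 0.10 (adjusted p = 1.40e-04) and 0.70 ± 0.10 (adjusted p = 2.13e-05), while CCl4_PTH against CCl4 gave −0.041 ± 0.10 (adjusted p = 0.843). Cd59a, which blocks the insertion of C9, lay between 10.5 and 13.7 CPM (median 12.5) in CCl4_PTH, between 5.31 and 10.6 (median 7.06) in CCl4 and between 13.7 and 18.2 (median 15.2) in control livers. It was lower in CCl4 than in control livers without overlap (−1.04 ± 0.14, adjusted p = 6.45e-06) and higher in CCl4_PTH than in CCl4 livers (0.71 ± 0.14, adjusted p = 0.00351), and all CCl4_PTH livers were also below all control livers, though the difference of −0.33 ± 0.13 (adjusted p = 0.0773) was not called. Cr1l, which encodes the rodent regulator Crry, lay between 21.8 and 24.7 CPM (median 24.1) in CCl4_PTH, between 20.5 and 24.0 (median 21.8) in CCl4 and between 18.3 and 22.8 (median 19.3) in control livers. Its changes with TMM factors were small: 0.13 ± 0.071 (adjusted p = 0.129) for CCl4 against control, 0.095 ± 0.070 (adjusted p = 0.417) for CCl4_PTH against CCl4, and a call of 0.23 ± 0.071 (adjusted p = 0.0208) for CCl4_PTH against control, which was lost in 6 of 18 fits that each left out 1 library (adjusted p of 0.0501 to 0.0687). With library sizes alone Cr1l was also called higher in CCl4 than in control livers. On that scale 2 of the 3 genes were higher and 1 lower, with a median of 0.71. Of all 21840 genes 11278 were higher and 1061 lower there.

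C5ar1 and C3ar1, receptors for the anaphylatoxins C5a and C3a, had the largest rises of the 37 genes tested in CCl4 livers, while C5ar2, another C5a receptor, was not called. C3ar1, the C3a receptor, lay between 6.94 and 14.6 CPM (median 11.9) in CCl4_PTH, between 18.5 and 28.2 (median 21.3) in CCl4 and between 2.2 and 4.29 (median 3.10) in control livers. The 3 groups did not overlap at all: CCl4 livers were above control by 2.78 ± 0.19 (adjusted p = 7.66e-09), CCl4_PTH livers were below CCl4 (−0.96 ± 0.18, adjusted p = 0.00299) and above control (1.82 ± 0.18, adjusted p = 2.45e-06). In linear terms C3ar1 was 6.88-fold higher in CCl4 and 3.54-fold higher in CCl4_PTH than in control livers.

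C5ar1, the C5a receptor of neutrophils and macrophages, lay between 1.57 and 7.81 CPM (median 2.65) in CCl4_PTH, between 5.08 and 18.1 (median 9.13) in CCl4 and between 0.247 and 0.520 (median 0.339) in control livers. CCl4 livers were 28.9-fold above control (4.86 ± 0.42, adjusted p = 1.15e-07) and CCl4_PTH livers 9.31-fold (3.22 ± 0.40, adjusted p = 1.95e-05), and CCl4_PTH livers were lower than CCl4 (−1.64 ± 0.35, adjusted p = 0.00717). Only liver CCl4_PTH 1, at 7.81 CPM, reached into the CCl4 range, and the others of its group were at 3.30 CPM or less. Without that liver the difference of CCl4_PTH from CCl4 was −2.06 (adjusted p = 0.000146). Set against the macrophage markers, C5ar1 amounted to 0.314% to 1.74% of their sum in CCl4_PTH (median 0.395%), 0.787% to 1.84% in CCl4 (median 1.10%) and 0.077% to 0.205% in control livers (median 0.122%). Of 10 neutrophil markers the 9 tested were higher in CCl4 than in control livers, where 26.3% of all genes tested were higher. In CCl4_PTH against CCl4 livers 0 of the 9 were called higher and 0 lower. Their median log2 fold change there was 0.28, with 6 above and 3 below 0. The sum of the 10 was 224 CPM in CCl4_PTH 1, 12.9 to 27.2 in the other CCl4_PTH livers, 14.4 to 122 in CCl4 and 1.84 to 4.32 in control livers. The part of neutrophils in the C5ar1 values was not tested.

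C5ar2, a second C5a receptor that signals without G proteins, lies next to C5ar1 on chromosome 7. It lay between 0 and 4.41 CPM (median 3.79) in CCl4_PTH, between 3.39 and 6.17 (median 4.75) in CCl4 and between 0 and 3.48 (median 2.02) in control livers. The library of CCl4_PTH 7 and that of control 4 are listed at 0, while the other livers of these groups were at 2.59 CPM or more and 1.91 CPM or more. Whether these zeros are failed estimates or true values is not known, and the C5ar2 ranges, SE and tests rest on them. C5ar2 was called in no comparison, with 1.29 ± 0.74 (adjusted p = 0.167), −0.62 ± 0.72 (adjusted p = 0.642) and 0.67 ± 0.73 (adjusted p = 0.538) for CCl4 against control, CCl4_PTH against CCl4 and CCl4_PTH against control.

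A further 26 complement genes, listed apart from the 38, were fitted alongside, and 25 passed the filter. In CCl4 against control livers 7 were higher and 9 lower, in CCl4_PTH against CCl4 livers 7 higher and 3 lower, and in CCl4_PTH against control livers 7 higher and 1 lower. As shares of the 25 these were 28% and 36%, 28% and 12%, and 28% and 4%, against 26.3% and 21.2%, 7.1% and 4.95%, and 17.4% and 10.3% of all genes tested. The share higher in CCl4 against control was thus near that of all genes. With library sizes alone the counts were 7 and 3, 1 and 2, and 13 and 1, in the same order. Of all 21840 genes that scale called 11278 and 1061, 476 and 622, and 9564 and 353. The largest rises after CCl4 were in the integrin chains that form the leukocyte receptors for C3 fragments, at 5.27 ± 0.69 (adjusted p = 1.18e-05) in Itgam, 4.31 ± 0.42 (adjusted p = 5.13e-07) in Itgax and 3.04 ± 0.35 (adjusted p = 2.79e-06) in Itgb2. Of these, Itgax (−1.40 ± 0.36, adjusted p = 0.0188) and Itgb2 (−1.11 ± 0.33, adjusted p = 0.0345) were lower in CCl4_PTH than in CCl4 livers and Itgam was not called (−0.89 ± 0.56, adjusted p = 0.329). Vsig4, the complement receptor of Kupffer cells, rose by 1.06 ± 0.21 (adjusted p = 4.42e-04) in CCl4 livers and gave −0.35 ± 0.21 (adjusted p = 0.292) in CCl4_PTH against CCl4. Cr2, the receptor of B cells and follicular dendritic cells, rose by 1.22 ± 0.29 (adjusted p = 0.00186) in CCl4 and 1.19 ± 0.29 (adjusted p = 0.00489) in CCl4_PTH against control.

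Falls after CCl4 in that list included Susd4, an inhibitor of the C3 convertase that is also among the 10 male-biased genes, with −7.28 ± 0.47 (adjusted p = 7.66e-09), and Cd59b with −1.41 ± 0.31 (adjusted p = 0.00108). Susd4 lay between 0.187 and 0.843 CPM (median 0.379) in CCl4_PTH, between 0 and 0.376 (median 0.242) in CCl4 and between 32.2 and 40.0 (median 34.2) in control livers. Against control CCl4_PTH livers gave −6.34 ± 0.44 (adjusted p = 6.93e-08) in Susd4. In CCl4_PTH against CCl4 livers Cfhr3 rose by 0.70 ± 0.19 (adjusted p = 0.0196) and Cpn2, a subunit of the carboxypeptidase that inactivates anaphylatoxins, by 0.54 ± 0.16 (adjusted p = 0.0309). The other fall in CCl4_PTH against CCl4 livers was Cd93, a membrane lectin of endothelium and myeloid cells, with −0.59 ± 0.17 (adjusted p = 0.0258).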

How the data were processed

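Livers of 6 CCl4_PTH, 6 CCl4 and 6 control mice were measured, 18 libraries in all, grouped by their treatment labels. The labels use both PTH and PZH, which were taken as one preparation, Pien Tze Huang. The deposited values were taken as estimated counts for 54752 genes, with no scaling for depth; they were already whole, so that rounding changed 0 of them. GRCm38, Bowtie2 2.5.1, HISAT2 2.2.1, StringTie 2.1.5, cutadapt 4.2 and FastQC 0.11.9 stand in the submitters' processing notes, with no word on what each did. The counting tool, annotation and use of strand are not given in the sources used here, so that overlapping genes and near copies (C4a and C4b, C1ra and C1rb, C1s1 and C1s2, Cd59a and Cd59b) may share reads.

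Identifiers were matched to GENCODE M21 (54723 of 54752), which gave coordinates and exon lengths. The filter of edgeR 4.0.16 (filterByExpr, minimum count 10; R 4.3.3) kept 21840 genes, and 37 of the 38 complement genes; Fcnb did not pass. One quasi-likelihood fit with 3 groups, TMM factors and no block gave the 3 comparisons, with Benjamini-Hochberg adjustment over all genes tested. The SE follows from the log2 fold change and its F statistic. The fit was tested on simulated data in which few genes changed, as many up as down, so that the test does not bear on the choice of scale. Every pair of libraries within a group differed by more than counting error (chi-square per gene of at least 57.9).

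The complement genes, their classes and the marker lists were chosen with earlier results of these data known. All 38 genes are named; of the other complement genes Vsig4, Itgam and Cr2 were followed, with the 3 largest rises and falls in CCl4 against control and in CCl4_PTH against CCl4, except genes that are not reported here. Of 13 same-numbered pairs of libraries 0 had a correlation over 0.1 (−0.21 to 0.083), which does not show whether they shared handling. Alternatives were DESeq2 1.42.0, RLE factors, library sizes alone, no filter, a replicate block, leaving out each library, and leaving out controls 1 and 8 together. Library sizes without ribosomal RNA loci were added after seeing the data. Promoters came from the RefSeq table of GRCm38.p6; protein sequences were not used here.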

Additional observations from a re-analysis of the deposited data

Results flagged for a closer look

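In each gene and group of 6 livers, a liver was marked when its gap to the nearest other liver exceeded Dixon's critical share of the group's range. Of 114 sets tested, 13 were marked. The rule marks about 1 in 20 by chance only for independent, normally distributed values. CPM of genes from the same livers are not independent, so the count was not set against chance. The liver CCl4_PTH 1 accounted for 6 of them and control 1 for 5.

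In CCl4_PTH 1, C3 was at 21159 CPM (4755 to 6411 in the other 5 livers), C4b at 2311 CPM (940 to 1254), C4bp at 773 CPM (245 to 307), Clu at 1494 CPM (653 to 898), C7 at 10.3 CPM (2.06 to 5.11) and C5ar1 at 7.81 CPM (1.57 to 3.30). The same liver had the highest acute phase sum (51144 CPM) and the highest neutrophil marker sum (224 CPM) of all libraries.

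In control 1, C4a was at 191 CPM (58.6 to 82.5 in the other 5 livers), C2 at 83.5 CPM (43.2 to 56.1), C8a at 492 CPM (356 to 401), C8b at 220.5 CPM (129 to 149) and C9 at 316 CPM (157 to 205). Control 8 was marked for Mbl2, at 116 CPM (64.1 to 82.0). CCl4 7 was marked for Cfd, at 0.0369 CPM where the other 5 CCl4 livers had 0.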

How the results depend on the processing

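Over 25 alternatives, the 111 differences (37 genes in 3 comparisons) gave 2775 values, of which 2568 kept their direction and call or were called neither before nor after, 130 lost the call, 60 gained it and 17 turned their sign with a call on one side; 87 values changed sign without a call on either side. For CCl4 against control, library sizes alone gave 0.036 in Fcna, 0.10 in C1ra, 0.076 in C1s1, 0.23 in Masp1, 0.064 in C2, 0.28 in Cfb, 0.22 in Serping1 and 0.50 in Cfi, and sizes without ribosomal RNA loci 0.13 in Masp1, 0.17 in Cfb, 0.10 in Serping1 and 0.40 in Cfi. For CCl4_PTH against control, library sizes alone gave 0.013 in Mbl1, 0.44 in C1ra, 0.020 in C1rl and 0.47 in Cfb, and sizes without ribosomal RNA loci 0.25 in Cfb. With library sizes alone the counts higher and lower in CCl4 against control were 14 and 6 for all 37 genes, 5 and 4 for hepatocyte-made genes, with 0 macrophage-made genes lower; without ribosomal RNA loci they were 14 and 8, and 5 and 5, again with 0 macrophage-made genes lower. In CCl4_PTH against CCl4, library sizes alone gave 6 higher (4 hepatocyte-made) and 2 lower (2 macrophage-made). In CCl4_PTH against control they gave 22 higher (13 hepatocyte-made) and 1 lower (0 hepatocyte-made), and sizes without ribosomal RNA loci 18 (9) and 1 (0). Of all 21840 genes, library sizes alone called 11278 higher and 1061 lower in CCl4 against control. They called 476 and 622 in CCl4_PTH against CCl4, and 9564 and 353 in CCl4_PTH against control. Of 21771 genes, sizes without ribosomal RNA loci called 10819 higher and 1562 lower in CCl4 against control. They called 6893 and 675 in CCl4_PTH against control. Without the filter 2 genes, both macrophage-made, were lower in CCl4_PTH than in CCl4. DESeq2 called 2 hepatocyte-made genes higher in CCl4_PTH than in control. Leaving out together controls 1 and 8, which stood apart in earlier lipid gene scores of these data, gave 2 such genes, and 1 macrophage-made gene lower.

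Of 13 same-numbered pairs 0 had a correlation over 0.1, and those of CCl4_PTH with CCl4 livers lay between −0.21 and −0.11. Whether livers of the same number shared handling is not stated in the labels, and this check cannot decide it. With the replicate numbers as a block, CCl4_PTH against CCl4 had 0 complement genes higher or lower, 0 hepatocyte-made higher and 0 macrophage-made lower. Of all genes 84 were called, against 2632 without the block. CCl4_PTH against control then had 1 lower, with 0 hepatocyte-made genes higher and 0 lower. Leaving out single libraries gave 2 to 4 genes lower in CCl4_PTH against CCl4 (macrophage-made 2 to 4), and in CCl4_PTH against control 0 to 2 hepatocyte-made genes higher and 0 to 1 macrophage-made gene lower. Calls kept in each of the 18 cases numbered 24 of 27 for CCl4 against control (C4a, Cfb and Masp1 were lost), 11 of 16 for CCl4_PTH against CCl4 (C1qb, C1qc, C1rl, C2 and Masp1 lost) and 9 of 13 for CCl4_PTH against control (C4b, C7, Cfp and Cr1l lost). The causes were not tested.

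Depth limits Fcnb and Cfd, and C5ar2 is listed at 0 in 2 libraries. In whole liver pieces cell number and RNA per cell cannot be told apart, and transcript levels are not plasma protein levels.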
